A study of Mus musculus with 6 samples.

Results

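The genes described here are 10 costimulatory and checkpoint receptors and ligands of T cells, out of 30733 gene symbols measured. They were taken from the deposited tables by symbol: 6 receptors (Ctla4, Cd28, Icos, Pdcd1, Btla and Lag3) and 4 ligands (Cd274, Pdcd1lg2, Cd80 and Cd86). All 10 were found. The cells carry the label HSC (haematopoietic stem cell, the source of every blood lineage). They came from bone marrow of wild-type (WT) mice after 5 Gy of total body irradiation, and their RNA was sequenced in bulk. The 6 libraries fall into 2 groups, MHCII-hi and MHCII-lo, with 3 libraries each. MHC class II shows peptides to CD4 T cells at the cell surface. Both groups carried the same genotype and the same irradiation, and no unirradiated library is among the 6. Mouse strain, age, the sort gates and the time after irradiation were not given in the sources used here. At issue was how the MHCII-hi and MHCII-lo fractions of the labelled stem cells differ in their transcripts.

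A T cell needs a signal through CD28 beside its antigen receptor to respond fully. CD28 and its inhibitory relative CTLA-4 bind the same ligands, CD80 and CD86, which sit on dendritic cells, macrophages and activated B cells, and CTLA-4 binds them more tightly. ICOS binds ICOS ligand, PD-1 (Pdcd1) binds PD-L1 (Cd274) and PD-L2 (Pdcd1lg2), BTLA binds HVEM (Tnfrsf14), and LAG-3 binds MHC class II itself. Receptors are mostly found on T cells and related lymphocytes, BTLA also on B cells and dendritic cells, and PD-L1 on many marrow and blood cells.

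Levels are in FPKM, which counts fragments per kilobase relative to the library total, so that genes of different length can be compared. Depth is not given with the values and was roughly estimated at 20500000 to 32800000 fragments a library, and group values are mean ± SD with n = 3 libraries. Separate mice behind the replicates are not stated in the labels. The p-values below therefore measure no more than how these libraries vary, which may be technical. Replicates lay close together: for 515 genes of 100 FPKM or more, the coefficient of variation had a median of 1.92% in MHCII-hi and 2.17% in MHCII-lo. The class II chains followed the sort: the mean log2(FPKM + 1) of H2-Aa, H2-Ab1 and H2-Eb1 was 6.17 ± 0.02 in MHCII-hi libraries and 1.86 ± 0.08 in MHCII-lo libraries, a difference of 4.31 (exact permutation test, two-sided p = 0.1, which 3 libraries against 3 cannot go below). The stem cell label was not matched by its markers. Mecom, Procr, Fgd5, Slamf1 and Hoxb5 had group means of at most 0.497 FPKM, and Kit, which mast cells also carry, stood at 15.0 and 12.6 FPKM in MHCII-hi and MHCII-lo. The neutrophil gene S100a9 stood at 6580 ± 127 FPKM in MHCII-hi and 16900 ± 163 FPKM in MHCII-lo. Immunoglobulin genes took 23.4 to 23.7% of the summed FPKM in MHCII-hi libraries and 0.493 to 0.502% in MHCII-lo libraries.

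The receptors were higher in MHCII-hi cells, and of the 4 ligands Cd274 alone passed the test. With no expression minimum, so that all 10 genes entered the test, 6 of 6 receptors and 1 of 4 ligands were higher at an adjusted p of 0.05 (limma on log2(FPKM + 1), Benjamini-Hochberg over 27171 genes), and 0 of the 10 were lower. Of all genes in that fit, 14.6% were called higher, 13.8% lower and 28.4% either way. The median log2 change of the 10 genes was 0.68, against 0.014 over all genes in that fit. With a minimum mean of 1 FPKM, 7 of the 10 genes were tested and 5 were higher, where 58.6% of 12110 genes were called, 25.5% higher and 33.1% lower. Scaled without immunoglobulin genes, 58.1% were called and 40.5% were higher. For 7 of the 10 genes every MHCII-hi library lay above every MHCII-lo library, where 39.7% of all genes did not overlap with no minimum (21.3% higher, 18.4% lower) and 65.8% with the minimum (29.0% higher, 36.8% lower). Ctla4 and Cd28 lay under 1 FPKM in every MHCII-lo library and passed that minimum only through MHCII-hi. The count of 7 rests on Lag3: leaving out any 1 library except MHCII-lo replicate 1 left 6 genes called in the fit with no minimum, and the adjusted p of Lag3 in limma was then 0.0561 to 0.0791. In bulk RNA, more cells of a type and more RNA per cell cannot be told apart.

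**Figure D1:**
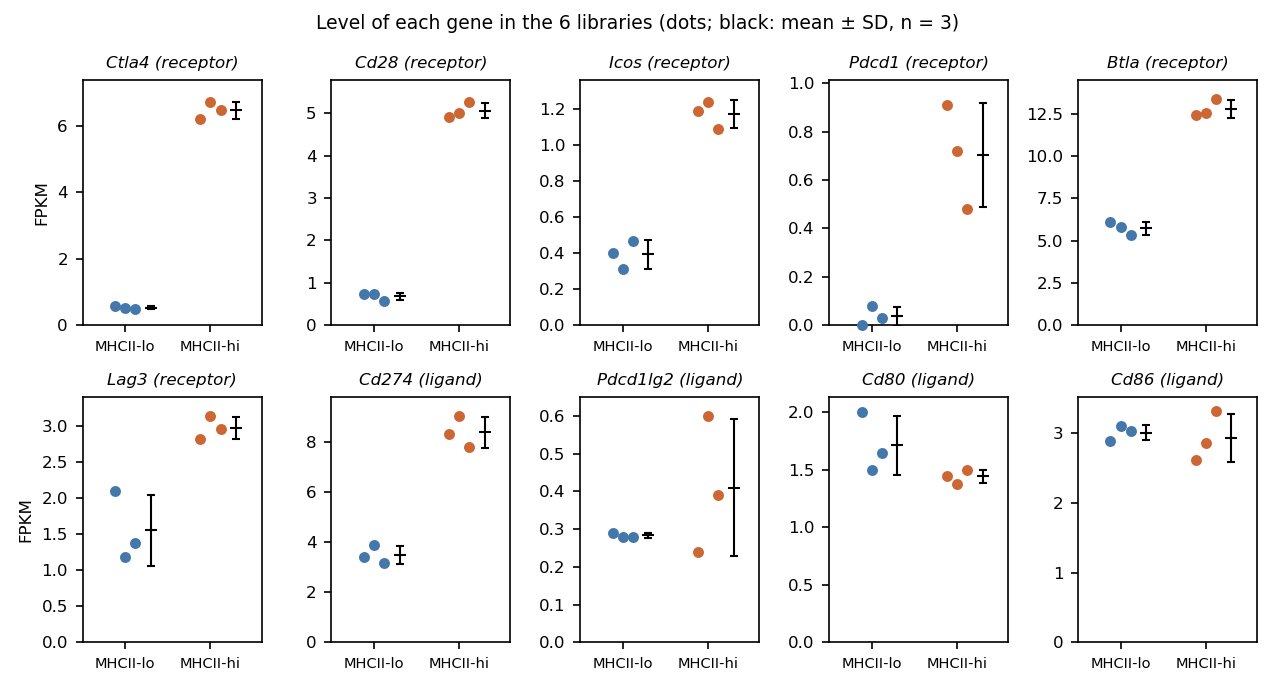
Each panel shows 1 gene on a linear axis in FPKM starting at 0, with a dot for each of the 3 MHCII-lo (blue) and 3 MHCII-hi (orange) libraries and the mean ± SD (n = 3) in black. The groups do not overlap for the 6 receptors and Cd274, and they overlap for Pdcd1lg2, Cd80 and Cd86.

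Ctla4, the inhibitory receptor that competes with CD28, had the largest change of the 10 genes on the log2(FPKM + 1) scale. By the ratio of mean FPKM, Pdcd1 at 19.2-fold lay above it, from levels near 0 in MHCII-lo. It lies on chromosome 1, 60887000 to 60915832 (GRCm38, plus strand), and a processed pseudogene, Rpl18-ps1, lies inside that span. Its level was 6.21, 6.71 and 6.49 FPKM in MHCII-hi replicates 1 to 3 and 0.57, 0.51 and 0.48 FPKM in MHCII-lo replicates 1 to 3. Every MHCII-hi library stood above every MHCII-lo library, and the spread inside each group was small against the gap. The group means were 6.47 ± 0.251 and 0.52 ± 0.0458 FPKM, a 12.4-fold difference (10.9 to 14.0-fold between the nearest and the farthest libraries). The log2 change was 2.30 in the fit with no minimum (SE 0.06, limma adjusted p = 4.28e-06). Ranked by log2 change among 11883 tested genes that are not immunoglobulin genes, Ctla4 stood at place 23 from the top. That place is only descriptive, because Ctla4 passed the minimum of 1 FPKM only through MHCII-hi.

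Cd28, the stimulatory receptor, moved the same way but less. It lies 114 kb before Ctla4 on the same chromosome and strand, at 60716800 to 60773359. MHCII-hi libraries held 4.91, 5.00 and 5.27 FPKM, and MHCII-lo libraries 0.73, 0.73 and 0.57 FPKM. The groups were again far apart, with means of 5.06 ± 0.187 and 0.677 ± 0.0924 FPKM. That is a 7.48-fold difference, or 1.85 in log2 with no minimum (SE 0.07, adjusted p = 1.84e-05 by limma). Cd28 stood at place 47 of the same ranking, which it too entered only through MHCII-hi.

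The order of these neighbours differed between the groups. The ratio of Ctla4 to Cd28 in FPKM was 1.28 ± 0.0569 in MHCII-hi libraries and 0.774 ± 0.0718 in MHCII-lo libraries. As a difference of log2(FPKM + 1) inside each library, Cd28 minus Ctla4 was 0.14, 0.20 and 0.09 in MHCII-lo and -0.29, -0.36 and -0.26 in MHCII-hi. The groups differed by -0.44 on that scale, with exact permutation p = 0.1 and adjusted p = 0.12 over the 6 pairs compared (two-sided). With a pseudocount of 0.1 the difference was -0.67. The FPKM ratio of 2 genes in a library does not depend on how that library was scaled. No pair could fall under 0.1 with 3 libraries against 3.

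Icos, a costimulator of activated and helper T cells, completes the cluster 62.1 kb after Ctla4, on chromosome 1 at 60977927 to 61000320. It stood at 1.19, 1.24 and 1.09 FPKM in MHCII-hi and 0.40, 0.31 and 0.47 FPKM in MHCII-lo. The groups did not overlap, but the level was low in both. Its mean over all libraries of 0.783 FPKM lay under the minimum, so its test comes from the fit with no minimum. The means of 1.17 ± 0.0764 and 0.393 ± 0.0802 FPKM differed 2.98-fold, or 0.64 in log2 (SE 0.08, adjusted p = 0.00175 by limma). The 3 neighbouring genes therefore rose together, by 12.4-fold, 7.48-fold and 2.98-fold. Icosl, which encodes the ligand of ICOS, rose from 4.56 ± 0.153 FPKM in MHCII-lo to 6.42 ± 0.407 FPKM in MHCII-hi (log2 change 0.42, limma adjusted p = 6.71e-04). Icos minus Icosl was higher by 0.23 in MHCII-hi on the log2(FPKM + 1) scale (exact permutation p = 0.1, adjusted p = 0.12). That difference was 0.12 under quantile normalization (exact permutation p = 0.3) and 0.90 with a pseudocount of 0.1.

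Pdcd1, the inhibitory receptor PD-1 of activated and exhausted T cells, had the lowest level of the receptors. It lies on chromosome 1 at 94038305 to 94052553 (minus strand). It stood at 0.91, 0.72 and 0.48 FPKM in MHCII-hi and at 0, 0.08 and 0.03 FPKM in MHCII-lo. The groups did not overlap, and the MHCII-hi values spread more widely for their size than those of the other receptors. At the estimated depth, which depends on a search window set after seeing the data, these levels stand for about 108 fragments over the 3 MHCII-hi libraries and about 5 over the 3 MHCII-lo libraries. The ratio per fragment sequenced was 20.2 (95% exact interval 8.39 to 63.4, counting error only). The log2 change in the fit with no minimum was 0.71 (SE 0.10, limma adjusted p = 0.00317), which the added 1 FPKM compresses at such levels.

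Btla, an inhibitory receptor of B and T cells, was the most abundant of the 10 genes in both groups. It lies on chromosome 16 at 45224315 to 45257670. It stood at 12.45, 12.53 and 13.41 FPKM in MHCII-hi and 6.09, 5.79 and 5.32 FPKM in MHCII-lo. The groups did not overlap, although MHCII-lo cells also held a level above that of every other gene of the set. The means of 12.8 ± 0.533 and 5.73 ± 0.388 FPKM differed 2.23-fold, or 1.04 in log2 (SE 0.06, adjusted p = 9.53e-06 by limma). The BTLA ligand gene Tnfrsf14 rose less, from 6.22 ± 0.473 to 8.92 ± 0.784 FPKM (log2 change 0.46, limma adjusted p = 0.00184). Btla lay just under Tnfrsf14 in each MHCII-lo library, at a ratio of 0.922 ± 0.0106, and above it in each MHCII-hi library, at 1.44 ± 0.0608 (SD, n = 3). Btla minus Tnfrsf14 differed between the groups by 0.58 on the log2(FPKM + 1) scale (exact permutation p = 0.1, adjusted p = 0.12).

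Lag3, the inhibitory receptor that binds MHC class II, lies on chromosome 6 at 124904361 to 124911705. It stood at 2.83, 3.14 and 2.97 FPKM in MHCII-hi and 2.11, 1.18 and 1.38 FPKM in MHCII-lo. The groups did not overlap, but MHCII-lo replicate 1 lay well above the other MHCII-lo libraries. The means of 2.98 ± 0.155 and 1.56 ± 0.49 FPKM differed 1.91-fold, or 0.65 in log2 (SE 0.13, adjusted p = 0.00523 by limma). Without MHCII-lo replicate 1 the log2 change was 0.80 (limma adjusted p = 5.62e-04). The class II chains, which LAG-3 binds, moved with the sort: H2-Aa was 29.0-fold, H2-Ab1 17.2-fold and H2-Eb1 41.8-fold higher in MHCII-hi. Fgl1, which encodes another LAG-3 ligand, was listed at 0 in 5 of the 6 libraries and at 0.02 FPKM in the other.

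Among the ligands, Cd274 (PD-L1) was the one that rose. It lies on chromosome 19 at 29367455 to 29388095, where an antisense transcript, AC119228.1, overlaps it. The library kit marks strand, per the labels' protocols, but the strand setting of the counting is not given in the sources used here. Cd274 stood at 8.33, 9.02 and 7.79 FPKM in MHCII-hi and 3.39, 3.87 and 3.17 FPKM in MHCII-lo. Its lowest MHCII-hi library was 2.01-fold above its highest MHCII-lo library. The means of 8.38 ± 0.617 and 3.48 ± 0.358 FPKM differed 2.41-fold, or 1.07 in log2 (SE 0.08, adjusted p = 3.72e-05 by limma).

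Pdcd1lg2 (PD-L2) begins 22.8 kb after Cd274, at 29410919 to 29471161, and was low in both groups. It stood at 0.24, 0.60 and 0.39 FPKM in MHCII-hi and 0.29, 0.28 and 0.28 FPKM in MHCII-lo. The groups overlapped, with about 11 to 21 estimated fragments a library. The log2 change of 0.13 had a 95% interval of -0.11 to 0.36 (no minimum, limma adjusted p = 0.42). It was 0.22 without MHCII-hi replicate 1, 0.03 without MHCII-hi replicate 2 and 0.01 under quantile normalization. Cd274 minus Pdcd1lg2 differed between the groups by 0.94 on the log2(FPKM + 1) scale, and the libraries of the groups did not overlap (exact permutation p = 0.1, adjusted p = 0.12). An antisense transcript, A930007I19Rik, overlaps Pdcd1lg2. Pdcd1 minus Cd274 was lower in MHCII-hi by 0.36 on the log2(FPKM + 1) scale, and higher by 1.31 with a pseudocount of 0.1, so the direction of this pair depends on the pseudocount.

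Cd80 and Cd86, the ligands shared by CD28 and CTLA-4, did not pass the test in either fit. Cd80 (chromosome 16, 38455561 to 38496335) stood at 1.45, 1.38 and 1.5 FPKM in MHCII-hi and 2.0, 1.5 and 1.65 FPKM in MHCII-lo. The groups met at 1.5 FPKM. Its log2 change was -0.15 (95% interval -0.36 to 0.06, limma adjusted p = 0.185), and the value depended on scaling: it was -0.31 under quantile normalization (limma adjusted p = 0.0172) and -0.04 when scaled without immunoglobulin genes (limma adjusted p = 0.709). Without MHCII-lo replicate 1 it was -0.08 (limma adjusted p = 0.477). Cd86 (chromosome 16, 36603869 to 36666081, minus strand) stood at 2.62, 2.86 and 3.31 FPKM in MHCII-hi and 2.89, 3.10 and 3.03 FPKM in MHCII-lo. The MHCII-hi libraries lay on both sides of the MHCII-lo ones. Its log2 change was -0.03 (95% interval -0.21 to 0.15, limma adjusted p = 0.741). Cd86 exceeded Cd80 in each library, at a ratio of 2.03 ± 0.203 in MHCII-hi and 1.79 ± 0.313 in MHCII-lo. Cd86 minus Cd80 differed between the groups by 0.12 on the log2(FPKM + 1) scale (exact permutation p = 0.5). It was 0.02 without MHCII-lo replicate 1, 0.19 without MHCII-lo replicate 2 and 0.07 without MHCII-hi replicate 3.

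**Figure D2:**
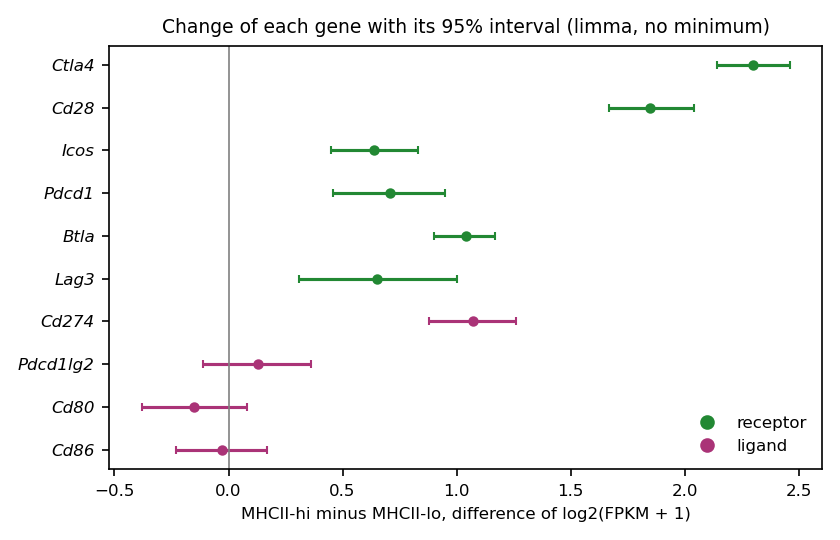
Points are differences in mean log2(FPKM + 1), MHCII-hi less MHCII-lo, from the limma fit with no minimum, with bars for the 95% intervals, receptors in green and ligands in purple. The intervals of the 6 receptors and Cd274 lie above 0, and those of Pdcd1lg2, Cd80 and Cd86 include 0.

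Read as receptor and ligand sides, the sums moved by different amounts. The 6 receptors summed to 29.2 ± 0.611 FPKM in MHCII-hi and 8.92 ± 0.869 FPKM in MHCII-lo. The 4 ligands summed to 13.2 ± 0.666 and 8.48 ± 0.319 FPKM. On the CD28 axis, Ctla4 plus Cd28 went from 1.20 ± 0.131 FPKM in MHCII-lo to 11.5 ± 0.379 FPKM in MHCII-hi, while Cd80 plus Cd86 stood at 4.72 ± 0.15 and 4.37 ± 0.388 FPKM. The ligand pair thus exceeded the receptor pair in every MHCII-lo library and lay below it in every MHCII-hi library. Cd274 made up 63.7% ± 3.20 of the ligand sum in MHCII-hi and 40.9% ± 2.84 in MHCII-lo. Ctla4 made up 22.2% ± 0.635 of the receptor sum in MHCII-hi and 5.84% ± 0.0862 in MHCII-lo, and the share of Btla was 43.8% ± 1.21 and 64.4% ± 2.90 (SD, n = 3).

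**Figure D3:**
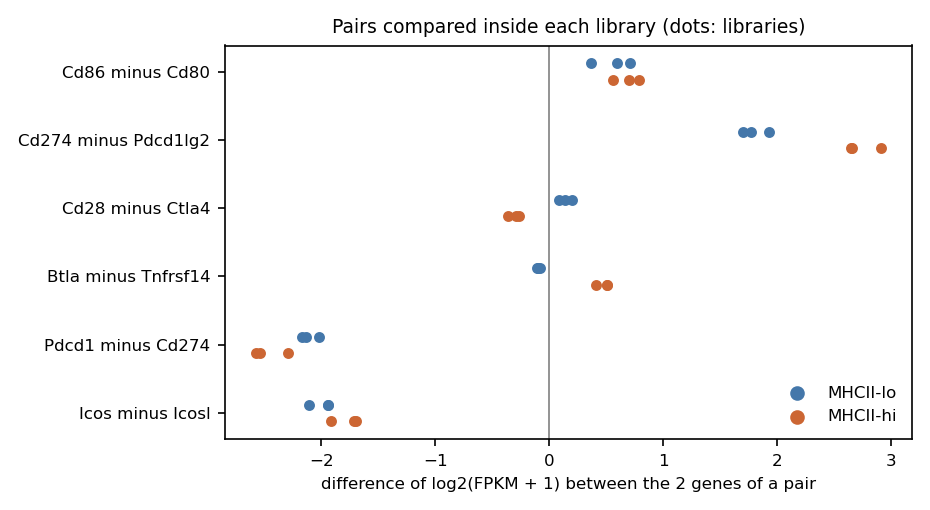
Dots are the difference of log2(FPKM + 1) between the 2 genes of a pair inside each library, blue for MHCII-lo and orange for MHCII-hi. The groups overlap for Cd86 minus Cd80 and are separate for the other 5 pairs, of which Cd28 minus Ctla4 and Btla minus Tnfrsf14 lie on opposite sides of 0 in the groups.

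In MHCII-hi the levels ran from Btla through Cd274, Ctla4, Cd28, Lag3, Cd86, Cd80, Icos and Pdcd1 down to Pdcd1lg2. In that order Lag3 and Cd86 overlapped across libraries, as did Pdcd1 and Pdcd1lg2. In MHCII-lo the order was Btla, Cd274, Cd86, Cd80, Lag3, Cd28, Ctla4, Icos, Pdcd1lg2 and Pdcd1. There Cd80 and Lag3 overlapped, and Cd28 and Ctla4 met at 0.57 FPKM. Btla and Cd274 thus led in both groups, and Ctla4 and Cd28 stood above Cd86 in MHCII-hi and below it in MHCII-lo.

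The promoters of the clustered ligands, of Ctla4 and of Cd80 are shown because these genes moved differently: Cd274 and Ctla4 rose, and Pdcd1lg2 and Cd80 did not. RefSeq windows (GRCm38.p6) were found for 6 of the 10 genes: Ctla4, Pdcd1, Cd80, Btla, Cd274 and Pdcd1lg2. The 250 bases before the RefSeq start are printed 5′ to 3′ on the gene's own strand, which is the plus strand for the 4 genes. For Ctla4 and Cd80 these windows lie inside the GENCODE spans given above, since another transcript in that annotation begins further upstream. Capitals mark matches, on either strand, to 5 motifs: GAAA, any 2 bases and GAAA (IRF), TTCNNNGAA (GAS), GGG, any 5 bases and CC (NF-kB), TGANTCA (AP-1) and GGAAAA (NFAT). The windows are chr19:29367188-29367437 for Cd274, chr19:29410669-29410918 for Pdcd1lg2, chr1:60908775-60909024 for Ctla4 and chr16:38458683-38458932 for Cd80.
Cd274: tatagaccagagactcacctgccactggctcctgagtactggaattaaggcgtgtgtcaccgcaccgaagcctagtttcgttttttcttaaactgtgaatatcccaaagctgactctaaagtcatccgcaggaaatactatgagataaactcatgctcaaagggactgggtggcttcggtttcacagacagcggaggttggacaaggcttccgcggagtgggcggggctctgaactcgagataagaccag
Pdcd1lg2: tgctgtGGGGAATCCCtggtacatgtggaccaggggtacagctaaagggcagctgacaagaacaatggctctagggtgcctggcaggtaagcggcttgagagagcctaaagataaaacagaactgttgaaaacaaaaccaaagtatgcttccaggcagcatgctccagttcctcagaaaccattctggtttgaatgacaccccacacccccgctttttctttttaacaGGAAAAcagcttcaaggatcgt
Ctla4: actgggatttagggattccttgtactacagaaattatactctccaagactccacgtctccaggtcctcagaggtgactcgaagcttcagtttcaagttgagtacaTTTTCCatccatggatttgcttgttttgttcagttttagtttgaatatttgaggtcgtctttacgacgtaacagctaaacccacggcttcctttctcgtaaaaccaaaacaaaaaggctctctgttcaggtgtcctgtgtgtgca
Cd80: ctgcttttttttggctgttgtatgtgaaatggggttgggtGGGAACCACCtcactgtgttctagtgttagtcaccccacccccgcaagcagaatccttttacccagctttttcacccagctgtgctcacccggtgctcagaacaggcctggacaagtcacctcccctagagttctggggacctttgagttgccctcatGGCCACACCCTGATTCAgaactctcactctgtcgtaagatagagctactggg

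The 2 clustered ligands differed in these letters. The Cd274 window held no match to any of the 5 motifs, as did those of Pdcd1 and Btla. Pdcd1lg2 held GGGGAATCCC, an NF-kB match, 244 bases before the start and an NFAT match 22 bases before it. Ctla4 held 1 NFAT match, on the other strand, 145 bases before the start. Cd80 held NF-kB matches 210 and 52 bases before the start, the nearer of which abuts an AP-1 match at 42 bases. Over all 32851 windows of this length, 45.8% held an NF-kB match, 20.4% an NFAT match, 7.02% a GAS match, 6.75% an AP-1 match and 2.98% an IRF match. A match describes the letters in this window and not a site in use.

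Markers of T cells, B-lineage cells and dendritic cells moved with the 7 genes that rose. All 16 T cell markers listed were higher in MHCII-hi in the fit with no minimum, and their summed level was 72.1 to 75.7 FPKM in MHCII-hi and 23.5 to 26.2 FPKM in MHCII-lo. Over all genes in that fit, 14.6% were higher and 13.8% lower. Folds of the 16 ran from 1.82 to 10.1 with a median of 3.17: the antigen receptor chain Trac stood at 10.6 ± 0.829 against 2.74 ± 0.691 FPKM, and the signalling chain Cd3e at 1.29 ± 0.03 against 0.317 ± 0.147 FPKM. Cd4 had the highest of those folds, at 1.38 ± 0.155 against 0.137 ± 0.0306 FPKM. The fold of Ctla4 lay above those of 16 of the 16, that of Cd28 above 15, that of Icos above 6, that of Btla above 3 and that of Lag3 above 1. Of 6 regulatory T cell markers 3 were higher, but 5 stayed under 1 FPKM in every library. Foxp3, the factor that defines those cells, stood at 0.273 ± 0.0321 against 0.0467 ± 0.0208 FPKM, and the list summed to 4.3 to 4.6 FPKM in MHCII-hi and 1.26 to 1.71 FPKM in MHCII-lo. Of 10 NK cell markers 9 were higher (195 to 202 against 159 to 169 FPKM in sum), as were 6 of 8 markers of type 2 innate lymphoid cells (19.0 to 19.4 against 6.7 to 7.03 FPKM). Most of the NK sum was Nkg7, the marker that did not pass, at 148 ± 3.42 against 150 ± 3.99 FPKM.

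On the presenting side, 11 of 12 B cell, 9 of 9 plasma cell, 11 of 11 conventional dendritic cell and 7 of 7 plasmacytoid dendritic cell markers were higher with no minimum. The shares over all genes for this and the lists below were 14.6% higher and 13.8% lower. The B cell sums were 60.8 to 63.2 FPKM in MHCII-hi and 7.83 to 9.45 FPKM in MHCII-lo, and those of plasma cells 1520 to 1530 and 79.7 to 83.1 FPKM. Dendritic cell sums were 76.8 to 79.8 and 29.9 to 30.6 FPKM for the conventional list and 55.4 to 63.9 and 25.3 to 27.1 FPKM for the plasmacytoid list. Cd80 and Cd86 did not pass the test beside them. Monocyte and macrophage markers were mixed, with 7 of 11 higher and 3 lower (442 to 464 against 524 to 537 FPKM). All 11 neutrophil markers were lower (18200 to 18500 against 40800 to 41300 FPKM). Of the 9 eosinophil, basophil and mast cell markers 8 were higher (5710 to 5840 against 2430 to 2450 FPKM), and 9 of 12 stem cell markers were higher (91.1 to 95.8 against 40.0 to 40.3 FPKM), led by Ly6a. In MHCII-lo, the B cell marker Cr2 and the innate lymphoid cytokine Il5 were listed at 0 in all 3 libraries. The part of these cell types in the changes of the 10 genes was not tested.

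**Figure D4:**
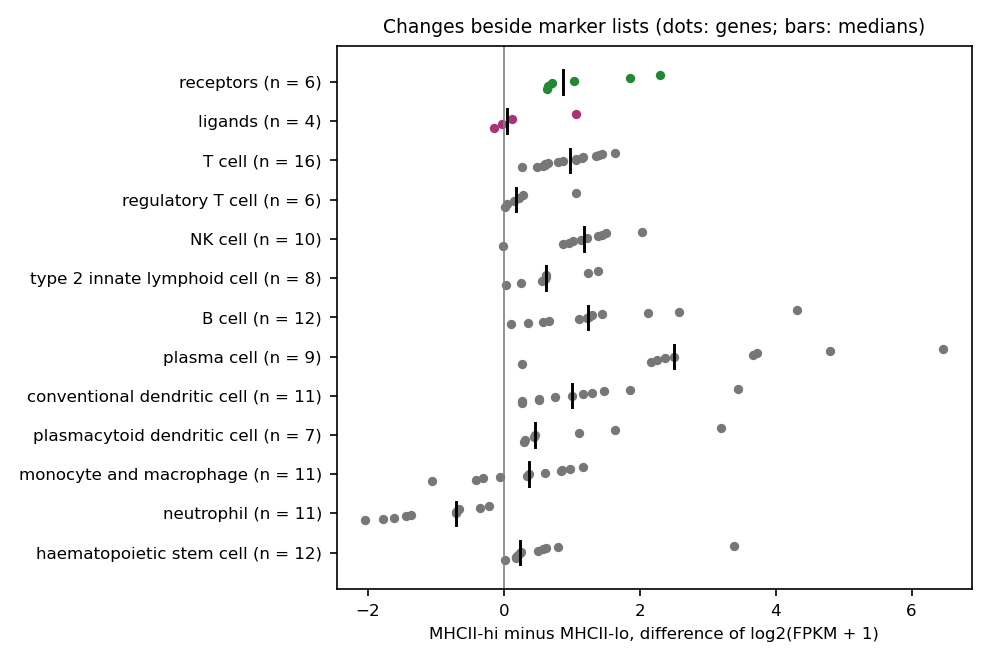
Dots are genes, placed by their log2 change (MHCII-hi minus MHCII-lo, log2(FPKM + 1), fit with no minimum), with black bars for list medians. Receptors lie to the right of 0, as do the medians of all marker lists shown except neutrophil. Of the 4 ligands 3 lie near 0, and neutrophil markers lie to the left. The eosinophil, basophil and mast cell list, with a median of 0.82, is not drawn.

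Set against the summed markers of the same library, the receptors went different ways. These ratios were chosen after the values were seen, and each was tested by a two-sided exact permutation test over the 6 libraries, adjusted over 10 genes. Ctla4 equalled 8.79% ± 0.509 of the summed T cell list in MHCII-hi and 2.12% ± 0.267 in MHCII-lo, and Cd28 6.87% ± 0.41 and 2.75% ± 0.378. Both were higher relative to that sum in each MHCII-hi library than in any MHCII-lo library (exact permutation p = 0.1, adjusted p = 0.125). Pdcd1 went the same way, at 0.95% ± 0.27 and 0.143% ± 0.154. Icos equalled 1.59% ± 0.0922 and 1.61% ± 0.388, and the groups overlapped (exact permutation p = 0.9). Btla was lower relative to the summed list, at 17.4% ± 1.10 in MHCII-hi and 23.3% ± 2.25 in MHCII-lo. So was Lag3, at 4.05% ± 0.279 and 6.40% ± 2.32 (exact permutation p = 0.1, adjusted p = 0.125 for each of these 2). For Lag3 the difference of -2.35 percentage points became -1.05 without MHCII-lo replicate 1. All these ratios are to the sum, in which abundant markers weigh most. Its largest member was Trbc2, at 16.4 ± 0.806 FPKM in MHCII-hi and 5.78 ± 0.447 FPKM in MHCII-lo. Cd4, a small part of the sum, differed 10.1-fold, more than Cd28 at 7.48-fold. The rise of Cd28 relative to the sum therefore does not hold against every marker in it.

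For the ligands the reference was the summed conventional dendritic cell list. Cd274 equalled 10.7% ± 0.999 of it in MHCII-hi and 11.5% ± 1.28 in MHCII-lo, and the groups overlapped (exact permutation p = 0.5). Cd86 equalled 3.72% ± 0.425 and 9.95% ± 0.465, and Cd80 1.83% ± 0.0427 and 5.67% ± 0.783. Pdcd1lg2 equalled 0.524% ± 0.241 and 0.937% ± 0.0109. These 3 lay lower relative to the summed list in every MHCII-hi library than in any MHCII-lo library (exact permutation p = 0.1, adjusted p = 0.125 for each). Most of that sum in MHCII-lo (29.9 to 30.6 FPKM) was Irf8, at 19.2 ± 0.33 FPKM. In MHCII-hi (76.8 to 79.8 FPKM) Irf8 stood at 28.0 ± 0.537 FPKM. Cd209a rose from 0.6 ± 0.139 FPKM in MHCII-lo to 16.4 ± 0.523 FPKM in MHCII-hi. The make-up of the reference thus differed between the groups, for Cd274 as for the other ligands. Ratios to single markers were not tested.

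Other genes of these pathways were counted from lists. Below CD28 and PD-1, 13 of 18 signalling genes rose, 2 fell and 3 did not pass, with a median log2 change of 0.52, where 25.5% of all tested genes were higher and 33.1% lower with a median of -0.037. When libraries were scaled without immunoglobulin genes 16 rose and 0 fell, where 40.5% of all tested genes were higher and 17.6% lower. Some of the 13 reached the minimum of 1 FPKM only through MHCII-hi. With no minimum and the deposited scaling, again 13 of 18 rose, 2 fell and 3 did not pass, where 14.6% of all genes were higher and 13.8% lower. The NF-kB subunit Rel stood at 21.1 ± 0.663 against 7.99 ± 0.0404 FPKM, and the kinase Lck at 7.83 ± 0.498 against 2.12 ± 0.335 FPKM. Ptpn6 and Ptpn11, the phosphatases that PD-1 and BTLA recruit, were picked after their values were seen. They stood at 73.2 ± 1.79 against 86.2 ± 1.77 and 14.9 ± 0.65 against 14.8 ± 0.45 FPKM.

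Of the TNF family costimulators, 5 of 16 had a mean of at least 1 FPKM, of which 4 rose and 1 fell, and with no minimum 10 of 16 rose and 1 fell. Over all genes, 25.5% were higher and 33.1% lower with the minimum, and 14.6% and 13.8% without it. The receptor Cd27 rose from 3.72 ± 0.485 to 7.10 ± 0.114 FPKM and the ligand Tnfsf9 from 0.983 ± 0.312 to 2.76 ± 0.0321 FPKM, both higher in MHCII-hi. Tnfsf14, another ligand of HVEM, known as LIGHT, fell from 6.94 ± 0.196 to 4.73 ± 0.09 FPKM. Of 6 other B7 and butyrophilin genes, Icosl rose, Vsir (VISTA) fell from 71.8 ± 1.49 to 55.9 ± 1.91 FPKM, 3 did not pass with no minimum, and Btn2a2 was listed at 0 throughout.

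Other checkpoint genes went both ways: with a minimum of 1 FPKM, 6 of 14 rose, 5 fell and 3 did not pass. Over all tested genes, 25.5% were higher and 33.1% lower. Under quantile normalization 4 rose and 6 fell, where 20.9% of all tested genes were higher and 39.4% lower. Tigit, Cd226 and Havcr2, among the 6 that rose, reached the minimum only through MHCII-hi. Their MHCII-lo means were 0.45, 0.64 and 0.933 FPKM. With no minimum 8 of 20 rose, 5 fell and 7 did not pass, where 14.6% of all genes were higher and 13.8% lower. The T and NK cell receptor Tigit stood at 4.51 ± 0.493 against 0.45 ± 0.226 FPKM, a 10.0-fold rise. The genes that fell included the lectin Lgals3, from 147 ± 2.52 to 92.9 ± 1.63 FPKM, the phagocytic checkpoint receptor Sirpa, from 41.1 ± 0.974 to 30.7 ± 0.437 FPKM and its ligand Cd47, which most cells carry, from 58.6 ± 0.729 to 44.4 ± 1.17 FPKM. Among regulators of the ligands above the minimum 7 of 12 rose, 3 fell and 2 did not pass. When scaled without immunoglobulin genes 9 rose and 1 fell, where 40.5% of all tested genes were higher and 17.6% lower. Irf1 and Jak2, which carry the interferon gamma signal known to induce PD-L1, stood at 24.3 ± 0.618 against 10.9 ± 0.686 and 32.7 ± 0.554 against 21.1 ± 0.587 FPKM. Cmtm6, which keeps PD-L1 protein at the surface, fell from 52.5 ± 1.35 to 33.7 ± 0.45 FPKM, and Lrba, which protects CTLA-4 from degradation, rose from 1.48 ± 0.0115 to 2.37 ± 0.0961 FPKM.

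The genes most like each tested member over the 6 libraries were found by the root mean square difference of log2(FPKM + 1) after centring, among 10082 candidates. For Ctla4 they were Ear6 (0.051) and St6gal1 (0.059), and for Cd28 Ear2 (0.044) and Gimap6 (0.066). Ear6 and Ear2 are eosinophil ribonucleases, and St6gal1 is a sialyltransferase. Reads of Ear6 and Ear2 may be shared with relatives, which was not tested. For Btla they were Gla (0.038) and Rtl5 (0.05), for Cd274 Serpinb6b (0.051) and Fam129c (0.053), and for Lag3 Eno3 (0.086) and Vav2 (0.1). Cd80 was nearest to Cox10 (0.022) and Lrmda (0.026), and Cd86 to Ccm2 (0.027) and Btbd19 (0.029). The number of candidates within 0.1 was 6 for Ctla4, 7 for Cd28, 90 for Btla, 42 for Cd274 and 2 for Lag3, against 1520 for Cd80 and 1801 for Cd86, since small changes have many like them. With 2 groups of 3 libraries this measure reads mainly the size of the difference between the groups.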

How the data were processed

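Sorted cells gave strand-marking mRNA libraries, per the labels' protocols. Trimming, alignment and assembly tools named in the submitters' processing notes are fastp, HISAT2 and StringTie, with GRCm38 (mm10) as build. Their versions, settings, strand option and annotation: not given in the sources used here. Each library's deposited table pairs symbols with values, read here as FPKM made by the authors, because they are not whole, sum to 332289 to 383600 a library, and StringTie is named (the headers name no unit). Of 30803 rows, 70 were dropped because a row of higher mean had the same symbol. Since FPKM depends on the library total, abundant transcripts lower the values of others.

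Values were compared as MHCII-hi minus MHCII-lo with limma (version 3.58.1, R 4.3.3) on log2(FPKM + 1) with variance moderated along a trend in level, no covariate, two-sided, Benjamini-Hochberg at 0.05 over all tested genes (mean of at least 1 FPKM, or any value above 0 where no minimum is stated). Fold changes on that scale understate changes of low genes, so folds are ratios of the groups' mean FPKM. Exact permutation tests used scipy 1.17.1. In simulated data for this comparison (12110 genes), 46% of genes changed 1.25-fold, 74% at 1.5-fold, 92% at 2-fold and 100% at 4-fold were called, with 10 false calls. Those simulated folds are of FPKM + 1 and not ratios of mean FPKM. Only 50 genes were changed at each fold, whereas 58.6% of genes were called in the data. The rates therefore do not carry over to the folds reported here. Depth was estimated from the first 1-fragment step in 4877 single-exon genes. A first search over all steps was ambiguous between multiples, so the window of steps searched (25 to 60 FPKM times bases) was set after seeing the data; it allows only 16700000 to 40000000 fragments, and estimated fragments and the Pdcd1 interval hold only if it is right. Same-numbered replicates did not deviate together and were not paired. Alternatives were leaving out each library, the replicate number as a block, and other pseudocounts, minima, scalings and variance models, and shared symbols summed. Members, lists and tests were chosen with earlier results of these data known. All 10 members were named, with the 4 smallest p of each pathway list, binding partners of members and the 2 genes most like each tested member. Some genes that this rule names in the signalling list are not reported here. Vtcn1 was not analysed here. Coordinates are from GENCODE M21.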

Additional observations from a re-analysis of the deposited data

How the results depend on the processing

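The number of genes called was 7093 and 6399 to 6576 with 1 library left out (2760 to 2893 higher, 3589 to 3688 lower). When immunoglobulin genes were kept out of the scaling, the median change shifted by 0.15, and 4901 genes were higher and 2131 lower in place of 3084 and 4009, so that 69.7% of calls were higher in place of 43.5%. That share was 34.7% under quantile normalization, 51.5% with no minimum, and 35.3% with a minimum of 5 FPKM, where 1792 genes were higher. The 5 members called with a minimum of 1 FPKM were 5 with any 1 library left out, and 2 with a minimum of 5 FPKM, where only Btla and Cd274 were tested. With no minimum, 7 members were called, 6 or 7 with 1 library left out (chosen after seeing the data), 7 when scaled without immunoglobulin genes and 8 with quantile normalization, where Cd80 was lower (log2 change -0.31, limma adjusted p = 0.0491). The replicate block left 6638 genes and 5 members called with the minimum and 6 members without it, where Lag3 had limma adjusted p = 0.0533. Same-numbered libraries had correlations of -0.092, -0.004 and -0.035 between their deviations, and differently numbered ones -0.031 to 0.073. Such values cannot settle whether same-numbered libraries share a mouse or a sort, which the labels do not state.

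The log2 change of Cd86 turned from -0.03 to 0.03 without MHCII-hi replicate 1 (-0.10 to 0.03 with 1 library left out) and to 0.10 when scaled without immunoglobulin genes, and did not pass in either case; the same values came with no minimum. Pdcd1 minus Cd274 turned to 1.31 with a pseudocount of 0.1. Icos relative to T cell markers, a difference of -0.0172 percentage points, turned to 0.0297 without MHCII-lo replicate 1, to 0.149 without MHCII-lo replicate 3 and to 0.0234 without MHCII-hi replicate 3 (-0.23 to 0.149 with 1 library left out). With 1 library left out the class II difference was 4.26 to 4.33. The cause of each of these shifts was not tested. Depth limits Pdcd1 and Pdcd1lg2 most, at about 0 to 58 and 11 to 21 estimated fragments a library.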
